A study of Caenorhabditis elegans with 2 samples.

Results

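Transthyretin-like proteins are small, mostly secreted nematode proteins with a domain distantly related to vertebrate transthyretin, the carrier of thyroid hormone and retinol. Caenorhabditis elegans names their genes ttr, followed by a number, and what most of them do is not known. The best studied, TTR-52, is a secreted bridge that binds phosphatidylserine on dying cells and the engulfment receptor CED-1 on the neighbour that takes them up, and ttr-33 protects dopaminergic neurons from oxidative stress. The members described here are the genes with a symbol starting ttr- whose probe set the platform annotation assigns to 1 gene only. They are 40 of 17118 genes with a probe set of their own, read by 41 probe sets. The family was chosen by its measured values: it stood higher in the imp-2 RNAi sample in earlier results from these same arrays. The ratios between the arrays are therefore given as a description.

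RNA of whole nematodes was hybridised to 2 Affymetrix arrays, 1 per group. In the imp-2 RNAi group (the imp-2 array below) the animals ate Escherichia coli HT115 that made double-stranded RNA of imp-2, a gene of the signal peptide peptidase (IMPAS) family of intramembrane proteases. In the GFP RNAi group (the GFP array) they ate the same bacterial strain making double-stranded RNA of green fluorescent protein, the control. Both groups thus shared the bacterial strain and the feeding of double-stranded RNA. The labels do not state the nematode strain, the stage or the number of animals pooled. The sample titles name a mammalian brain region beside the whole animal. With 1 array per group there was no replicate check and no test of any difference.

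The targeted gene did not settle the labels. One imp-2 probe set read 1754 on the imp-2 array and 2318 on the GFP array (1.33-fold lower), and the other read 2517 on the imp-2 array and 510 on the GFP array (4.90-fold higher). The arrays are thus named by their labels, and each direction is one between labels. Values are deposited intensities in arbitrary units. Readings under an array's median (35.3 on the imp-2 array and 30.1 on the GFP array) were raised to that floor, so a fold against such a reading is a lower bound. Expressed genes were those with a mean log2 intensity over the median of the probe sets, controls left out, which is a geometric mean of 32.1. Log2 ratios (imp-2 RNAi over GFP RNAi) were shifted so that the 8553 expressed genes had a median of 0. As a scale for their precision, log2 ratios of probe sets that read the same gene on these arrays had a spread of 0.37 (2489 pairs). That spread pools dim and bright expressed probe sets and was not computed by brightness. It holds nothing about variation between cultures.

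On the imp-2 array the ttr family was shifted upward, with a wide range among its members. Of 33 expressed ttr genes, 13 were higher by 2-fold or more, 0 were lower by as much and 20 lay between. Across all expressed genes 9.72% were higher by 2-fold or more and 2.27% lower. The median log2 ratio of the expressed ttr genes was 0.57 (1.48-fold), with quartiles of 0.12 and 1.27, against a median of 0 and quartiles of −0.30 and 0.41 over all expressed genes. The ratio was above 0 in 26 of the 33 and below 0 in 7. It exceeded 2 probe set spreads (0.75) upward in 16 members and downward in 0, while 15.04% of all expressed genes exceeded it upward. Since the family was picked for being higher, nothing is read from these shares.

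**Figure D1:**
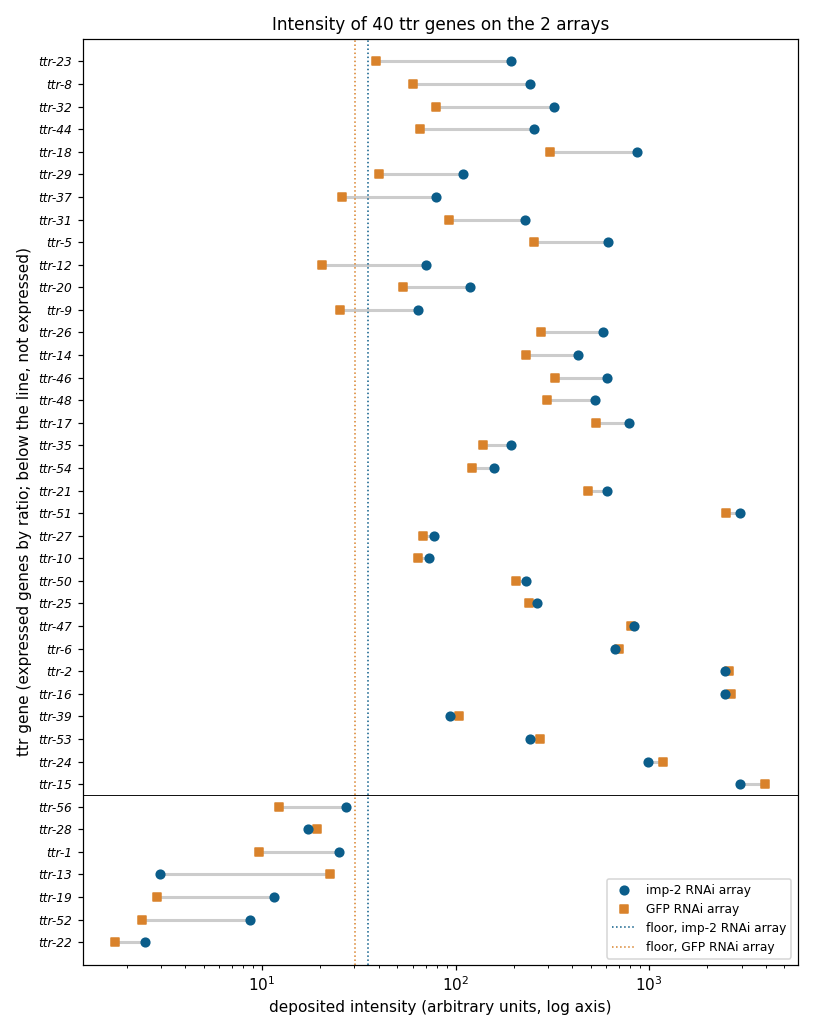
Deposited intensity (log axis, arbitrary units) of the 40 ttr genes on the imp-2 RNAi array (circles) and the GFP RNAi array (squares), 1 array each, so there are no error bars; dotted lines mark the floors. The 13 genes at the top are higher by 2-fold or more on the imp-2 RNAi array, and the 7 below the horizontal line are not expressed.

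The expression threshold was passed by 33 of the 40 members (82.5%), against 49.96% of all genes with a probe set of their own. Of the 33, 30 lay above the floor on both arrays. The other 3, ttr-9, ttr-12 and ttr-37, were above the floor on the imp-2 array and under it on the GFP array. They passed through the imp-2 array and so could differ in that direction only, and the count of 13 includes them. Among the 30 read above both floors, 10 were higher by 2-fold or more, against 8.69% of the 7960 expressed genes above both floors.

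In 3 members the ratio reached 4-fold, a level passed by 0.795% of all expressed genes. The gene ttr-23 read 194 on the imp-2 array against 39.0 on the GFP array, 4.92-fold higher (log2 ratio 2.30). Its GFP reading was not far above the floor of 30.1. For ttr-8 the readings were 243 on the imp-2 array and 59.98 on the GFP array, 4.03-fold higher (log2 ratio 2.01). The gene ttr-32 had 321 on the imp-2 array and 79.4 on the GFP array, 4.02-fold higher (log2 ratio 2.01). These 3 ratios lay above those of 99.2% or more of the expressed genes. Just short of 4-fold, ttr-44 read 255 on the imp-2 array and 65.7 on the GFP array, 3.84-fold higher (log2 ratio 1.94). Its probe set has a suffix for probes that may bind several transcripts.

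The remaining members past 2-fold and above both floors included some on bright probe sets. The gene ttr-18 read 862 on the imp-2 array and 309 on the GFP array, 2.77-fold higher (log2 ratio 1.47), on a probe set with the same kind of suffix. For ttr-5 the readings were 613 on the imp-2 array and 253 on the GFP array, 2.40-fold higher. These are genes read well above both floors, as was ttr-26, with 578 on the imp-2 array against 275 on the GFP array, 2.09-fold higher. On dimmer probe sets, ttr-31 read 227 on the imp-2 array and 91.95 on the GFP array, 2.45-fold higher. For ttr-20 there was 118.8 on the imp-2 array and 53.6 on the GFP array, 2.20-fold higher. The gene ttr-29 read 109 on the imp-2 array and 40.1 on the GFP array, 2.70-fold higher, with the GFP reading again not far above its floor.

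For the 3 genes under the floor on the GFP array only a bound can be given. The gene ttr-37 read 79.6 on the imp-2 array and 25.9 on the GFP array, at least 2.62-fold higher. For ttr-12 the readings were 70.3 on the imp-2 array and 20.3 on the GFP array, at least 2.32-fold higher. With 63.7 on the imp-2 array and 25.3 on the GFP array, ttr-9 was at least 2.10-fold higher. Since the bound is taken at the floor, these 3 genes have no order among themselves.

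Just past the 2-fold line was ttr-26 (log2 ratio 1.06), and 3 genes fell just short of it. The gene ttr-14 read 431 on the imp-2 array and 231 on the GFP array, a log2 ratio of 0.89. For ttr-46 the readings were 604 on the imp-2 array and 326 on the GFP array (0.88). In ttr-48 they were 523 on the imp-2 array and 298 on the GFP array (0.80). All 3 log2 ratios still exceeded 2 probe set spreads. After these came ttr-17, with 789 on the imp-2 array and 529 on the GFP array (log2 ratio 0.57). Log2 ratios were 0.47 for ttr-35, 0.37 for ttr-54 and 0.32 for ttr-21.

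A set of ttr genes with bright probe sets differed by less than 1.5-fold between the arrays. The brightness of different probe sets does not rank their transcripts, so the values serve to compare the arrays only. The gene ttr-15 read 2939 on the imp-2 array and 3967 on the GFP array, a log2 ratio of −0.44, the lowest of the expressed members. Its size exceeded the probe set spread (0.37) but not 2 spreads (0.75). The probe sets of ttr-15 and ttr-51 have the suffix for probes that may bind several transcripts. For ttr-51 the readings were 2959 on the imp-2 array and 2508 on the GFP array (log2 ratio 0.23). In ttr-16 they were 2475 on the imp-2 array and 2658 on the GFP array (−0.11), and in ttr-2 they were 2463 on the imp-2 array and 2576 on the GFP array (−0.08). All 4 genes above 1000 on both arrays thus lay within 1.5-fold, as did 17 of the 33 expressed members in all.

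Just below that level, ttr-24 was the only member with a second probe set of its own, and both sets gave a ratio slightly below 0. The brighter one read 984 on the imp-2 array and 1185 on the GFP array (log2 ratio −0.28), and the other read 363 on the imp-2 array and 389 on the GFP array (−0.11). The gene ttr-47 read 833 on the imp-2 array and 808 on the GFP array (0.03), and ttr-6 read 667.5 on the imp-2 array and 697.76 on the GFP array (−0.07). Neither differed by more than the probe set spread. The other ratios below 0 belonged to ttr-53, with 243 on the imp-2 array and 274 on the GFP array (−0.18), and to ttr-39, with 93.7 on the imp-2 array and 103.6 on the GFP array (−0.16). Small positive log2 ratios completed the expressed set, with 0.19 for ttr-27, 0.19 for ttr-10, 0.15 for ttr-50 and 0.12 for ttr-25.

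The ratio within the family moved with the dimness of the probe set. Across the 30 members above both floors, log2 ratio and mean log2 intensity gave −0.50 by Pearson's r and −0.48 by Spearman's rho, and across all 7960 genes above both floors they were −0.20 and −0.23. With the 3 bounds, which could only be high, both values for the members were −0.53. These are correlations across genes read on the same pair of arrays, and the intensities enter both measures. Expressed genes were then divided into 4 equal bins by brightness. In the dimmest bin 4 of 5 members were higher by 2-fold or more, against 14.2% of all genes there, and 3 of these 4 were the bounds. In the next bin the count was 6 of 10, against 15.9%, and in the one after it 2 of 7, against 6.31%. In the brightest bin it was 1 of 11 (ttr-18), against 2.43%. Median log2 ratios in the 4 bins, from dim to bright, were at least 1.21 (the bound of ttr-12), 1.21, 0.80 and 0.03 for ttr genes and 0.25, 0.09, −0.09 and −0.10 for all genes. The part that brightness plays in the shift of the family was not tested.

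**Figure D2:**
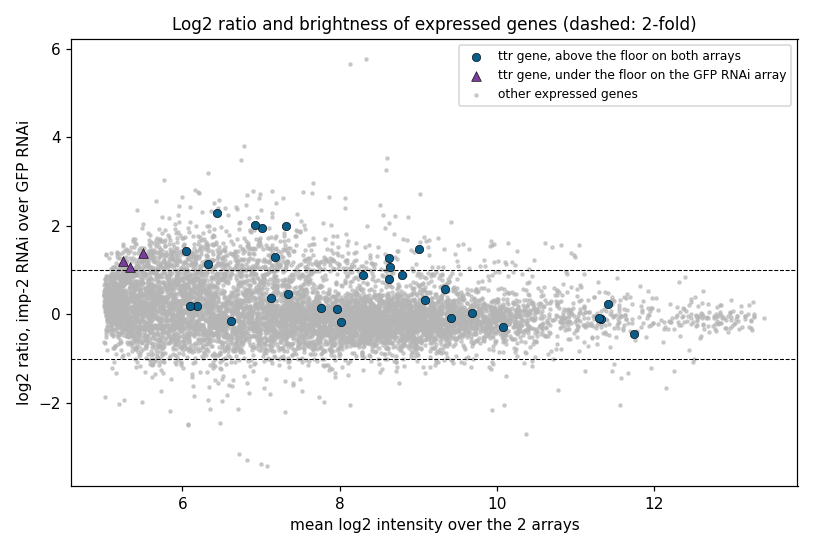
Log2 ratio (imp-2 RNAi over GFP RNAi) against mean log2 intensity over both arrays for the 33 expressed ttr genes and all other expressed genes; dashed lines mark 2-fold in each direction. Triangles are the 3 members under the floor on the GFP RNAi array. No ttr gene lies below the lower line, and the 4 members above 1000 on both arrays lie within 1.5-fold.

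**Figure D3:**
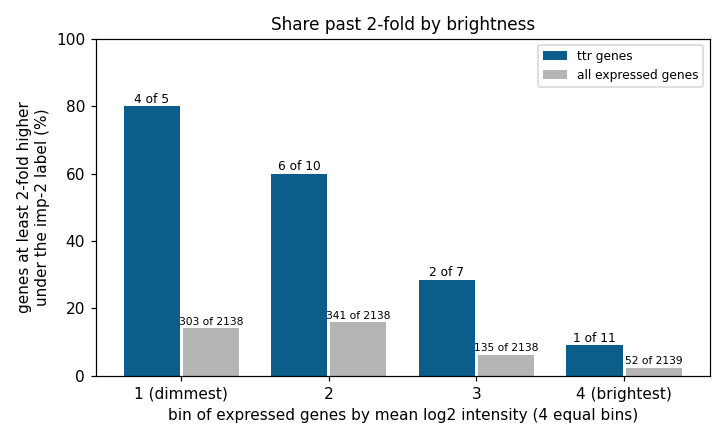
Share of genes higher by 2-fold or more on the imp-2 RNAi array, in percent, for ttr genes and for all expressed genes in each of 4 equal bins by brightness, with the counts above the bars. The share of ttr genes is 4 of 5 in the dimmest bin and 1 of 11 in the brightest.

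The 7 members that were not expressed read under the floor on both arrays, so no fold is given for them. Among them is ttr-52, the engulfment bridge, with 8.69 on the imp-2 array and 2.41 on the GFP array. The others were ttr-1, ttr-13, ttr-19, ttr-22, ttr-28 and ttr-56, which read between 2.49 and 27.2 on the imp-2 array and between 1.75 and 22.5 on the GFP array. Such readings do not show whether the transcripts were present at a low level.

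The gene table of WBcel235, a C. elegans genome assembly, lists 59 ttr genes. Besides the 40 members, 6 share a probe set with another gene and 13 have none in the annotation used here, ttr-33 among these. Outside the rule, the probe set shared by ttr-30 and ttr-59 read 449 on the imp-2 array and 41.2 on the GFP array, 10.8-fold higher, and cannot be assigned to either. The set shared by ttr-3 and the pseudogene ttr-4 read 142 on the imp-2 array and 98.8 on the GFP array (log2 ratio 0.51). The set shared by ttr-40 and ttr-49 read 14.7 on the imp-2 array and 12.7 on the GFP array, under both floors.

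Many ttr genes lie side by side in the genome: 28 of the 59 form 12 runs with no other protein-coding gene between them, by the order of that table. Log2 ratios of direct neighbours differed by 0.0035 in 1 pair and by 0.40 to 0.94 in the other pairs. A difference between 2 ratios varies more than 1 ratio, whose probe set spread was 0.37. With 1 array per group these differences were not tested. The neighbours ttr-8 and ttr-32 had log2 ratios of 2.01 each. In the run of ttr-24, ttr-25 and ttr-26 the log2 ratios were −0.28, 0.12 and 1.06, so that 1 of the 3 passed 2-fold. In the run of ttr-27, ttr-28 and ttr-29, the outer genes had 0.19 and 1.43 and the middle one was not expressed. The pair ttr-16 and ttr-17 had −0.11 and 0.57, and the pair ttr-53 and ttr-54 had −0.18 and 0.37. Over the 5 pairs of direct neighbours with both genes expressed the median absolute difference of log2 ratios was 0.55, against 0.79 over all 528 pairs of expressed members. Whether probes of one ttr gene also read a similar relative was not tested.

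**Figure D4:**
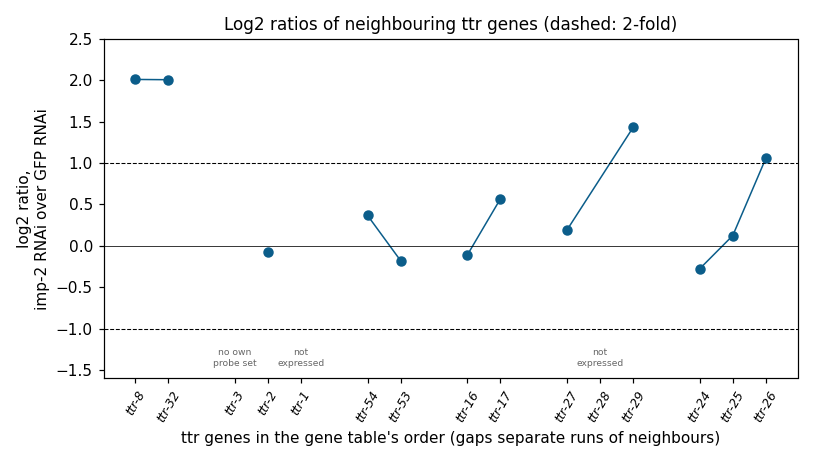
Log2 ratios (imp-2 RNAi over GFP RNAi) of ttr genes in the 6 runs of direct neighbours that hold at least 2 members, in the order of the gene table; dashed lines mark 2-fold. The genes ttr-8 and ttr-32 share a log2 ratio of 2.01, whereas ttr-24, ttr-25 and ttr-26 spread from −0.28 to 1.06.

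The expressed genes flanking the family centred on 0. Of 54 flanking genes, 26 had no expressed probe set and are left out. There were 28 expressed protein-coding genes that stand next to an expressed ttr gene or its run and are not ttr genes themselves. Of these, 2 were higher by 2-fold or more on the imp-2 array and 3 were lower, with a median log2 ratio of 0.0034. Across all expressed genes 9.72% were higher and 2.27% lower by as much, and the differences from these shares were not tested. The higher ones were nid-1, which encodes the basement membrane protein nidogen and lies beside the run with ttr-29 (log2 ratio 1.08), and ttbk-5, of a tau tubulin kinase class, beside ttr-39 (1.47). The lower ones were ets-4, of the ETS transcription factor class, beside ttr-35 (−1.29), Y51A2D.8 beside the run of ttr-24 (−1.16) and ama-1, the large subunit of RNA polymerase II, beside ttr-20 (−1.04). Of the 10 that flank a member past 2-fold or its run, 1 was higher, near the 9.72% of all expressed genes, and their median was −0.25.

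Genes listed for engulfment and phagocytosis, the processes in which TTR-52 acts, centred close to 0. The list was drawn broadly and is not one of genes that act directly with TTR-52. Of 23 listed genes 21 were expressed, and 0 of these were past 2-fold in either direction, 1 of them (unc-73) being read only as a bound. Across all expressed genes 9.72% were higher and 2.27% lower by as much. The median log2 ratio of the 21 was 0.02. The receptor gene ced-1 read 106 on the imp-2 array and 102 on the GFP array (log2 ratio 0.05). The log2 ratio was 0.06 for the adaptor gene ced-6, 0.06 for the transporter gene ced-7 and 0.02 for the phosphatidylserine receptor gene psr-1. For nrf-5, which encodes a secreted lipid-binding protein, it was 0.24. The ratios furthest from 0 were all negative. The gene unc-73, which encodes a guanine nucleotide exchange factor, read 29.5 on the imp-2 array, under its floor, and 55.8 on the GFP array, at least 1.59-fold lower. The log2 ratio was −0.65 for the endosomal GTPase gene rab-5 and −0.59 for the Rac GTPase gene ced-10.

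Families with lipid ligands or a related fold gave mixed values. Among genes for fatty acid and retinol binding proteins (far) and lipid-binding proteins (lbp), 14 were expressed. Of these, 3 were higher by 2-fold or more and 0 were lower, against 9.72% and 2.27% of all expressed genes. Their median log2 ratio was 0.07. Those higher were far-3, with 1196 on the imp-2 array and 123 on the GFP array (9.67-fold), lbp-7 (2.60-fold) and lbp-5 (2.32-fold). Just short of 2-fold were far-8 (1.93-fold lower) and lbp-6 (1.89-fold higher). The closer homologues of vertebrate transthyretin in the nematode are a separate family related to 5-hydroxyisourate hydrolases of purine breakdown. Of these, R09H10.3 read 422 on the imp-2 array and 376 on the GFP array (log2 ratio 0.16), and ZK697.8 lay under both floors. Differences between these families and the ttr genes were not tested.

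Some marker genes of the intestine also differed between the arrays. Of 7 expressed intestine markers 3 were higher by 2-fold or more on the imp-2 array and 0 were lower. Across all expressed genes 9.72% were higher and 2.27% lower by as much. The higher genes of this list were the esterase gene ges-1 (2.72-fold), the cathepsin L gene cpl-1 (2.69-fold) and the intermediate filament gene ifb-2 (2.15-fold). Whether each listed gene is confined to the intestine was not tested. Higher but within 2-fold were act-5 (1.90-fold), vit-6 (1.67-fold), vit-2 (1.54-fold) and asp-1 (1.11-fold). The list had a median log2 ratio of 0.93, and the summed intensity of its 8 genes was 16728 on the imp-2 array against 10760 on the GFP array. The largest readings in that sum were those of vit-6 and asp-1 on both arrays. The gene of the intestinal factor ELT-2 lay under both floors. Of 9 epidermis markers 2 were higher by 2-fold or more, against the same 9.72%, and 0 were lower. The 2 were the cuticle collagen genes rol-6 (at least 3.02-fold) and bli-1 (at least 2.43-fold). The 9 markers had a median log2 ratio of 0.09, with a summed intensity of 7821 on the imp-2 array and 7358 on the GFP array. The medians were 0.03 for 5 pharynx, 0.15 for 5 body muscle, −0.32 for 6 neuron, −0.15 for 5 germline and 0.45 for 4 sperm markers, all of them within 2-fold. Nearest to that line were the sperm marker spe-11 (1.9999-fold higher) and the neuron marker ric-4 (1.88-fold lower). Of the glia and coelomocyte markers on the array, 6 and 3 genes, 0 were expressed. In RNA of whole animals, more cells of a tissue cannot be told apart from more RNA per cell, and the part of tissue composition in the ratios of the ttr genes was not tested.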

How the data were processed

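The authors' deposited table holds 1 intensity per probe set and array, on a linear scale and already summarised over probes. The background correction, the summarisation and the scaling are not stated in the labels. Of 22548 probe sets other than controls, the platform annotation gives 20766 a single gene, 887 several and 895 none. Gene IDs were looked up in the WBcel235 gene table, which served for names and neighbour order, since the build of the array is not known. Python 3.11.15 with pandas 2.3.3, numpy 2.4.6 and statsmodels 0.14.6 was used. Intensities were floored and converted to log2, each gene was represented by its probe set of highest mean log2 intensity, and 0.01 was subtracted from each ratio to centre them. The number of arrays limits the precision. The steps were tested on simulated data, in which known changes past 2-fold were put into genes with bright probe sets only. That test says nothing about ratios near 2-fold or about dim probe sets, on which most of the higher members were read. The members and lists were chosen with earlier results of these data known. Every member is accounted for, and those described in full followed a rule: the 8 highest and 6 lowest ratios, up to 4 bounds, the 8 brightest, those with several probe sets, those near 2-fold, ttr-52 and ttr-33. The brightness bins and flanking genes were added after the values were seen, and flanking genes past 2-fold were named then. Sequences were not analysed here.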

Additional observations from a re-analysis of the deposited data

Results flagged for a closer look

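The probe set that the annotation assigns to both ttr-30 and ttr-59 lies outside the rule for members, and it differed more between the arrays than any member did. It read 449 on the imp-2 RNAi array and 41.2 on the GFP RNAi array, 10.8-fold higher. The readings cannot be divided between these neighbouring genes.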

How the results depend on the processing

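The count of ttr genes lower by 2-fold or more was 0 under each of the 9 alternatives run. Of 33 ttr genes, those higher were 13 without centring (9.90% of all expressed genes there), without a floor (10.5%) and with the mean of probe sets (9.69%), 11 with quantile normalization (8.15%) and with a common floor on both arrays (9.04%), and 10 with intensity-dependent centring (7.78%). Without probe sets with a suffix for several transcripts they were 11 of 28 (10.2%). They were 9 of 40 with no filter on dim genes (3.10% of all 17118 genes), where the genes under both floors set the centre by construction. Over the 18 members with mean log2 intensity past the 75th percentile they were 3 (5.42%), fewer genes being tested. Every gene counted under an alternative was among the 13. The median log2 ratio, 0.57 as reported, was 0.67 over the 28 members without such suffixes, 0.28 past the 75th percentile and 0.055 with no filter. It was 0.67 with intensity-dependent centring and 0.65 with quantile normalization. Without centring and with the mean of probe sets it was 0.58, and without a floor and with a common floor 0.57. Of all 2-fold calls over expressed genes, 81.1% were higher as reported and 72.7% with intensity-dependent centring. Over all 17118 genes, with no filter, it was 56.9%. The calls among ttr genes were all higher in each of these. The genes that fell within 2-fold under some alternative were ttr-9 (down to a log2 ratio of 0.79), ttr-12 (0.93), ttr-20 (0.92) and ttr-26 (0.84). No paired analysis was possible because each group holds 1 array. Signal over background limits the 3 bounds and the 7 members under both floors.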
